A study of Homo sapiens with 4 samples.

Results

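Ribosomal protein genes and their pseudogenes were followed in a human tumor cell line, GIST-T1, which derives from a gastrointestinal stromal tumor (GIST), with and without an added miR-335 mimic. Members were taken by gene name: the array probes whose gene name starts with RPL or RPS and a number, together with RPLP0, RPLP1, RPLP2 and RPSA. The choice of this family was made with earlier results of these data known. S6 kinase (RPS6K) and RPS4Y names were left out. The rule gave 107 names with 215 probes, out of 36337 names with 50599 probes on the array. They fell into 77 ribosomal protein genes with 177 probes, 8 paralogs with 1 probe each, 20 pseudogenes with 28 probes, and 2 other names, RPS19BP1 and RPL36A-HNRNPH2.

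There were 2 groups of 2 arrays each. Cells of both groups were nucleofected with 100 pmol of RNA: the mimic group received a miR-335 mirVana mimic, a synthetic RNA that stands in for the natural microRNA, and the control group received the mirVana mimic Negative Control #1. Total RNA was taken 48 h later, and 100 ng of it was labeled with 1 dye (Cy3). The labels do not say whether the arrays of a group came from separate transfections, so the p-values below measure only the spread between these arrays. The titles and the transfection labels of the mimic arrays say miR-335, whereas 1 line of their descriptions reads miR-34a mimic; the groups here follow the titles. The control arrays are numbered 3 and 4 in the titles and 1 and 2 in the descriptions, and the latter numbers are used.

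The ribosome makes protein from mRNA. Its small subunit reads the message, and its large subunit joins the amino acids and releases the chain through an exit tunnel. Each protein of either subunit is usually needed in equal number, and the mRNAs for these proteins are among the most abundant in a growing cell. Reverse copying of such abundant mRNAs into the genome has left many processed pseudogenes, which lack the introns of the parent gene and often lie inside unrelated genes. A microRNA acts mainly by pairing its seed, the bases at positions 2 to 8, with sites in mRNAs, which lowers those mRNAs. The labels name no arm for the mimic. The strand hsa-miR-335-5p, with the seed in capitals, is shown as the one whose seed is counted here, and the counts hold for that arm only. RefSeq places it on chromosome 7, at chr7:130496126-130496148 on the plus strand of GRCh38.p14.

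hsa-miR-335-5p: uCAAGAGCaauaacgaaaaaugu

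The DNA letters that pair with this seed, GCTCTTG, occurred in 0 of the 215 member probes on the transcript strand and in 221 of all 50599 probes (0.437%). On the other strand 1 member probe held them (0.465%), against 236 of all probes (0.466%). A probe covers 60 bases, so these counts say nothing of the rest of a transcript.

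The share of probes whose signal stood well above background ran from 40.3% to 41.9% over the arrays, and no spot was saturated. All 4 arrays were on 1 slide and in 1 scan, with the controls at positions 1 and 2 and the mimics at positions 3 and 4, so position and group cannot be told apart. The marker genes of GIST (KIT, ANO1, ETV1, PRKCQ, CD34 and GPR20) were well above background on all 4 arrays in 13 of 13 probes. Of 3 markers each for other cell types, 0 endothelial and 0 Schwann or melanocyte markers were detected on all 4 arrays, and 1 each of the epithelial (EPCAM), leukocyte (CD14) and smooth muscle (DES) markers was. The part of these in the results below was not tested.

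The first comparison asked whether the mRNAs of the ribosomal proteins differed between mimic and control cells. They hardly did. Values are log2 of the processed spot signal minus the 75th percentile of the array, called the level, and a change is the mimic mean minus the control mean. Of the 177 gene probes, 167 with 76 names were tested, since in at least 1 group both arrays had a signal well above background. None passed limma's threshold (Benjamini-Hochberg adjusted p under 0.05): 0 fell and 0 rose, against 532 of all 20328 tested probes (2.62%). At an unadjusted p under 0.05 there were 10 gene probes (5.99%), against 25.3% of all tested probes. The smallest adjusted p of a gene probe was 0.069. In bulk RNA, fewer cells of a kind and less RNA per cell cannot be told apart.

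Under this scaling, the spread between these arrays was small enough to bound most of these changes. The intervals measure that spread only and take the scaling as exact. Scaling to spiked-in RNAs, given below, adds -0.19 to every change. The 95% interval of the change lay within 1.5-fold in both directions for 163 of the 167 gene probes (97.6%), against 83.2% of all tested probes. The median half-width of the interval was 0.11 on the log2 scale for gene probes and 0.16 for all tested probes. The 4 gene probes whose interval reached past 1.5-fold belonged to RPL28, RPS2, RPS20 and RPS21, and each of these genes also had a brighter probe whose interval did not.

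The gene probes moved little and mostly in 1 direction. Their median change was -0.04 (quartiles -0.08 and -0.01), and 135 of 167 were below 0 (80.8%), against a median of -0.01 and 53.8% for all tested probes. Both mimic arrays were below both control arrays for 94 gene probes (56.3%), against 32.5% of all tested probes. Both were above for 18, against 27.1% of all. Over the gene probes, the median deviation from the probe's own mean was 0.026 and 0.014 on the control arrays and -0.038 and -0.006 on the mimic arrays, so the group medians did not overlap, but their gap was close to the gap between the mimic arrays. The median stayed below 0 under every scaling tried. Scaling to the spiked-in RNAs moved the median of all tested probes to -0.20 and that of gene probes to -0.23. Of 197 tested member probes, 174 were then called lower and 4 higher (90.4% called), against 9642 of all 20328 tested probes (47.4%). This scaling adds -0.19 to every change, so values given here as above 0 but smaller than 0.19 are below 0 there.

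Gene probes were among the brightest on the array, and above a level of 6 their changes lay closer together than those of all tested probes there. A mean level above 6 was reached by 134 gene probes, of 811 tested probes in all. There the changes of gene probes ran from -0.18 to 0.07 with an SD of 0.0466. The SD of all 811 probes, which include these 134 and were not matched to them for level, was 0.131, with changes from -1.05 to 0.63. The median SE for the change of a single gene probe was 0.04, but limma borrows part of it from all tested probes, whose median level was 0.87. The median absolute difference between the 2 arrays of a group was smaller for gene probes, 0.024 in control and 0.03 in mimic. Above a level of 6, 83.6% of gene probes and 64.2% of all probes were below 0. Probes share genes and arrays, so these counts are a description and carry no test.

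**Figure D1:**
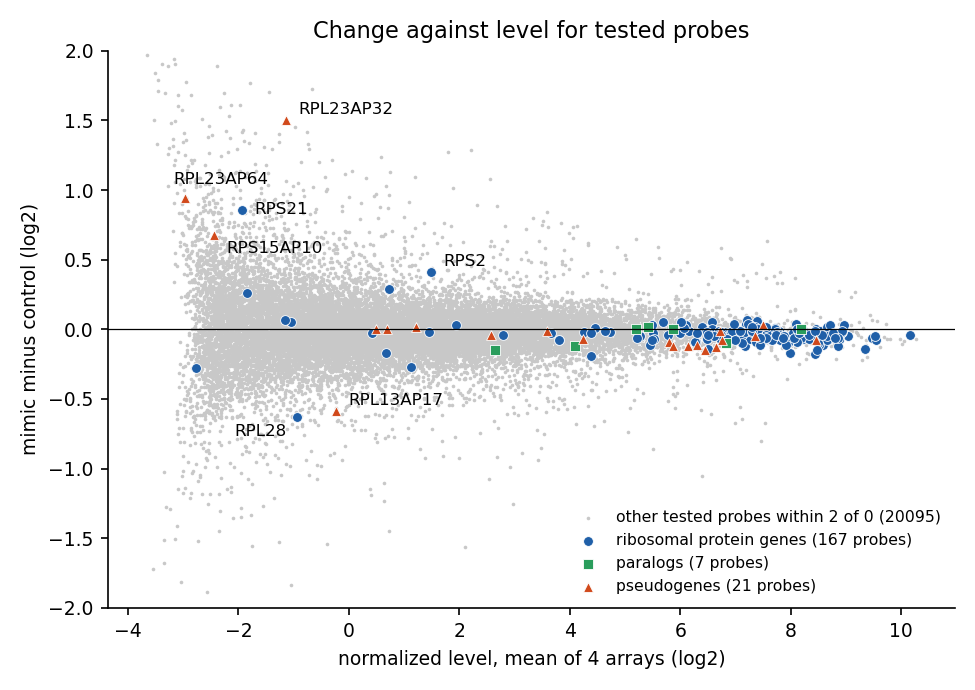
Change (mimic minus control, log2) against level (mean of the 4 arrays, log2) for every tested probe within 2 of 0; grey points are other probes, circles ribosomal protein genes, squares paralogs and triangles pseudogenes. The bright members lie in a narrow band close to 0, and the members far from 0, RPL23AP32 at 1.5 among them, all have a level below 2.

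The same was seen for either subunit. The 98 probes of 45 large-subunit genes had a median change of -0.04, and 82 of them were below 0. The 69 probes of 31 small-subunit genes had a median of -0.03, with 53 below 0. Averaged by gene, 62 of 76 genes lay below 0, and in 54 every tested probe did. Many of these genes carry small nucleolar RNAs (snoRNAs), guides of rRNA modification, in their introns. The 28 genes that enclose 58 snoRNA genes in RefSeq and the 48 that enclose none both had a median change of -0.04.

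The mRNAs of proteins with known special roles also changed little. RPL5 and RPL11, which with the 5S rRNA can bind MDM2 and so release p53, had changes of -0.03 to -0.06 (4 probes) and -0.06 (1 probe). RPS6, the substrate of the S6 kinases, read 7.90 and 7.91 on the control arrays and 7.84 and 7.87 on the mimic arrays. That is a change of -0.05 (SE 0.04, limma adjusted p = 0.456), and the groups did not overlap. The mRNAs for the stalk that recruits translation factors were as close to 0: RPLP0 at 0.01 and -0.02, RPLP1 at -0.05 and RPLP2 at -0.04. RPSA, also known as the laminin receptor, had 5 probes between -0.06 and 0.05.

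RPLP0 and RPL30 were each printed at 10 spots, which shows how closely a bright probe repeats. The RPL30 spots on an array had an SD of 0.038 to 0.043 and medians of 7.58 and 7.57 on the control arrays and 7.52 and 7.58 on the mimic arrays. The RPLP0 medians were 7.72, 7.68, 7.71 and 7.71 in the same order.

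Among bright probes, the largest negative changes were those of RPL35A, RPS13 and RPS23, a protein of the decoding centre. RPL35A, of the large subunit, read 8.55 and 8.51 in control and 8.35 and 8.37 in mimic cells, a change of -0.18 (SE 0.04, adjusted p = 0.114). RPS23 had 2 probes with changes of -0.19 (SE 0.04, adjusted p = 0.0926) and -0.15 (SE 0.04, adjusted p = 0.132). Both RPS23 probes and the RPL35A probe had groups that did not overlap. RPS13 had -0.17 at 1 probe (adjusted p = 0.122) and -0.06 at the other. RPL4, which lines the exit tunnel, had -0.14 at its only tested probe. None of these passed the test. With the variance trend of limma, 18 member probes were called lower and 4 higher, RPL35A, RPS13 and RPS23 among the former; the share of all probes then called was also larger, at 3083 probes (15.2%), against 11.2% of member probes.

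The largest positive changes of bright probes were smaller. RPL36 had 0.07 (SE 0.04, adjusted p = 0.316), with 7.16 and 7.19 in control and 7.24 and 7.25 in mimic cells. RPL34 had 0.06 and 0.03. With spike-in scaling RPL36 and the first RPL34 probe turned to -0.11 and -0.13, since this scaling adds -0.19 to every change.

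**Figure D2:**
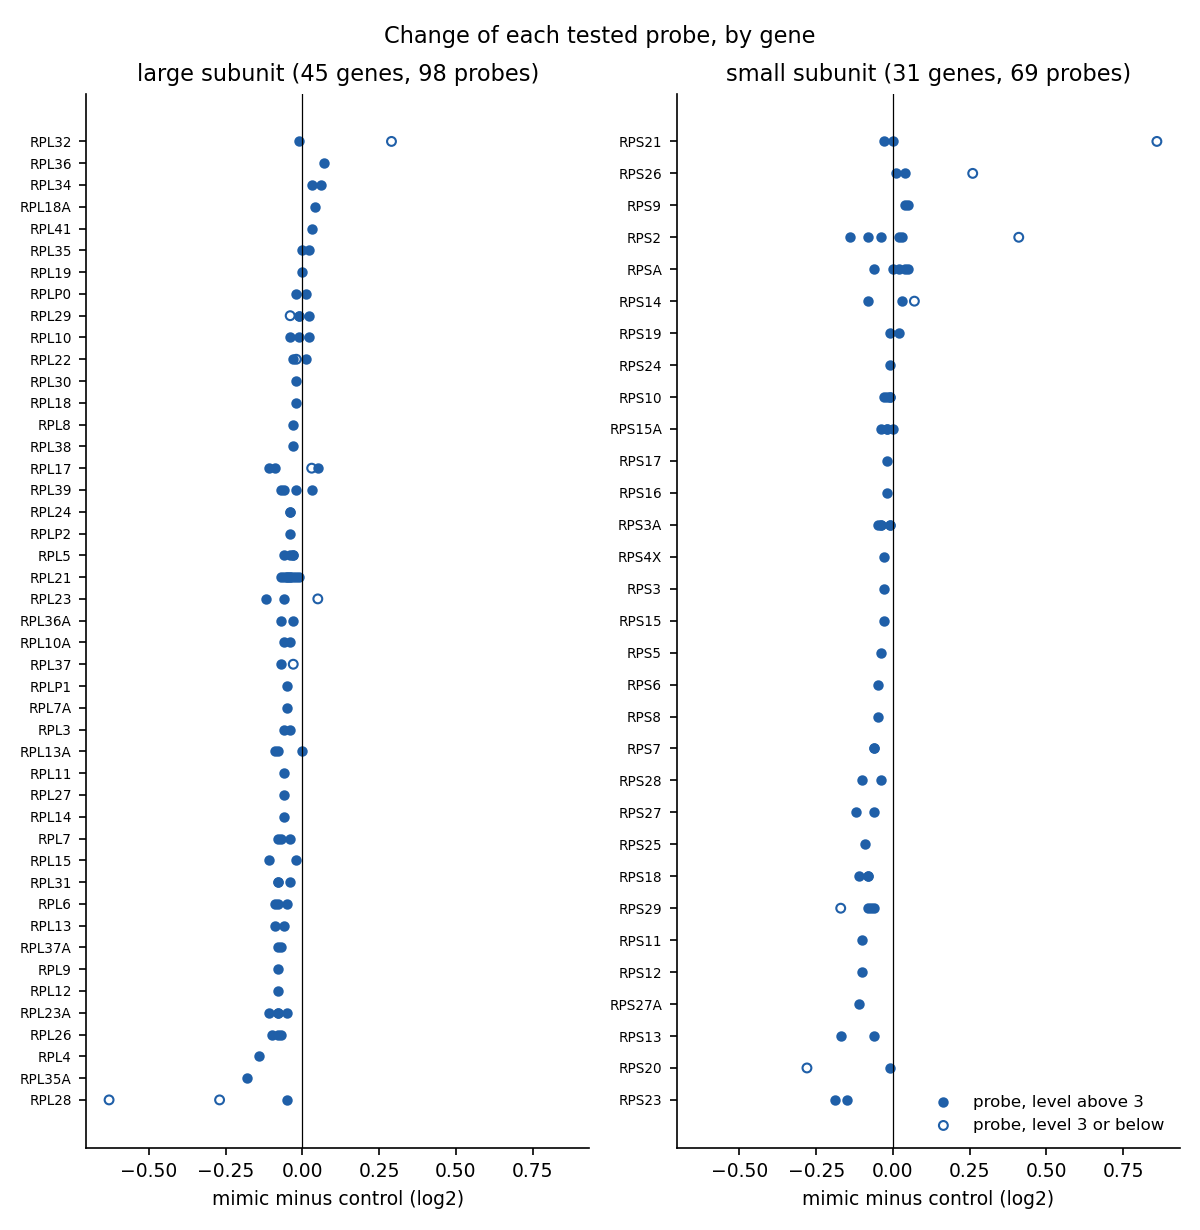
Change (mimic minus control, log2) of each tested probe, with a row per gene, ordered by the mean over its probes, for the large subunit (left) and the small subunit (right); filled circles have a level above 3 and open circles a level of 3 or below. Filled circles stay between -0.19 and 0.07, and the wide values of RPS21, RPS2, RPL32, RPS26, RPS20 and RPL28 are open circles.

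Values far from 0 came from dim probes of genes whose bright probes stayed near 0. Of the 167 tested gene probes, 14 had a level of 3 or below. The widest was a probe for the RPS21 transcript ENST00000370562, on chr20:60963037-60963096 (hg19, plus strand), which read -2.22 and -2.53 in control and -1.52 and -1.50 in mimic cells. The groups did not overlap, but the change of 0.86 (SE 0.12) did not pass the test (adjusted p = 0.069). It did pass with normexp (a model of signal and local background), spike-in scaling and the variance trend (limma adjusted p = 0.0264, 0.0269 and 0.019). The change was smaller with the first 2, at 0.34 with normexp and 0.67 with spike-in scaling, and 0.86 with the trend. Those settings called 7.62%, 47.4% and 15.2% of all tested probes. The main probe of RPS21, a small-subunit protein, read 8.79 and 8.79 against 8.75 and 8.76, a change of -0.03.

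RPS2 had the same pattern at a probe next to a snoRNA. The probe for the transcript ENST00000526586 lies on chr16:2012273-2012332 (hg19, minus strand), 2 bases from the array's probe for SNORA10, a snoRNA in an intron of RPS2. It read 1.34 and 1.21 in control and 1.67 and 1.71 in mimic cells (change 0.41, SE 0.06, adjusted p = 0.0743). The SNORA10 probe read 0.80 and 0.77 against 1.19 and 1.13 (change 0.38, SE 0.04, adjusted p = 0.0524). Neither passed the test, and at both the groups did not overlap. In the settings named for RPS21 the RPS2 probe did pass (limma adjusted p = 0.0135, 0.0499 and 0.0039 in that order). Its change there was 0.37, 0.23 and 0.41. The other 5 RPS2 probes, with levels above 7, had changes from -0.14 to 0.03.

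RPL32 and RPS26 had a dim probe of this kind as well. For RPL32, a large-subunit protein, the dim probe read 0.64 and 0.50 in control and 0.86 and 0.86 in mimic cells (change 0.29, SE 0.06, adjusted p = 0.114), while the bright probe had -0.01. For RPS26, which lies near the exit of the mRNA channel, the dim probe had 0.26 (SE 0.11, adjusted p = 0.246) and the other 2 probes had 0.04 and 0.01. The dim RPS14 probe had 0.07 (SE 0.07), and without control replicate 2 that value was -0.01.

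The negative end was held by probes with a wide spread. A dim probe of RPL28, of the large subunit, read -1.69 and 0.43 in control and -1.28 and -1.23 in mimic cells, so its change of -0.63 had an SE of 0.79, and without control replicate 2 it was 0.43. Another RPL28 probe had -0.27 (SE 0.10, adjusted p = 0.21), and the bright one had -0.05. The dim RPS20 probe had -0.28 (SE 0.26), 0.05 without control replicate 2, and the dim RPS29 probe -0.17 (SE 0.13). The bright probe of RPS20 had -0.01, and the other 3 RPS29 probes had -0.06 to -0.08.

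The 10 gene probes left untested were well above background on 0 arrays (8 probes) or on 1 array of a group at most. They were extra probes of genes that were tested elsewhere, except for RPL27A, whose only probe was well above background on 0 of the 4 arrays. Whether RPL27A mRNA changed was therefore not measured.

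The paralogs, second copies that keep a coding frame and are often used in particular tissues, were close to 0 too. Of 8, RPL3L, the heart and skeletal muscle copy of RPL3, was not well above background on any array. The other 7 had a median change of 0.00, and 0 passed the test. RPL7L1 read 2.72 and 2.73 in control and 2.56 and 2.57 in mimic cells (change -0.15, SE 0.04, adjusted p = 0.122). RPS27L, a p53-inducible copy of RPS27, read 4.15 and 4.15 against 4.02 and 4.05 (change -0.12, adjusted p = 0.188). RPL36AL had -0.10 (adjusted p = 0.202). In these 3 of the 7 (42.9%) both mimic arrays were below both control arrays, against 32.5% of all tested probes. RPL10L, RPL22L1 and RPL39L had changes of 0.00 and RPL26L1 0.02, all with groups that overlapped. The remaining names, RPS19BP1, which encodes a protein that binds RPS19, and the read-through RPL36A-HNRNPH2, had -0.03 and 0.00.

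The mRNAs of ribosomal proteins and of several translation factors share a start of C and T bases, through which their translation is set by growth signals. For RPS21, RPL13A, RPL21 and RPL29, genes that come up in the comparisons here, the 15 bases before the start and the first 15 transcribed bases in RefSeq (GRCh38.p14) are printed, with the unbroken C and T run from the start in capitals. The windows are chr20:62387088-62387117 on the plus strand for RPS21, chr19:49487593-49487622 on the plus strand for RPL13A, chr13:27251543-27251572 on the plus strand for RPL21 and chr3:51995881-51995910 on the minus strand for RPL29.

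RPS21: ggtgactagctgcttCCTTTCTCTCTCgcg
RPL13A: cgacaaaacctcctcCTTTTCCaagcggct
RPL21: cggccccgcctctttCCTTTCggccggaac
RPL29: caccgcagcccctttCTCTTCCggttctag

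The first 5 bases were all C or T in 42 of the 62 ribosomal protein genes that had an entry (67.7%), and in 1425 of 27305 genes with an entry (5.22%); this was read on the transcript strand only. Other genes of the same kind of message and of ribosome production were looked at as lists. Of 20 translation factors and related genes whose mRNAs have such a start, 33 probes were tested, with a median change of -0.03. Against 2.62% called of all tested probes, 0 of these 33 fell and 1 rose. It was a probe of HNRNPA1, an RNA-binding protein of splicing, with 0.92 and 0.92 in control and 1.39 and 1.37 in mimic cells (change 0.46, SE 0.04, adjusted p = 0.0368), while its brightest probe had -0.03. The 3 probes for ribosomal proteins without the RPL or RPS prefix had changes of -0.03 to 0.10, and 0 passed the test.

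Genes of ribosome assembly were measured in number. For 77 of them, 91 probes were tested; the median change was 0.04 with 58 probes above 0, and it was -0.15 with spike-in scaling, against -0.20 for all tested probes. Of these probes 0 fell and 1 rose, against 2.62% called of all tested probes. The 1 that rose was a probe of BMS1, a GTPase of small-subunit assembly. It read -0.57 and -0.53 in control and -0.08 and -0.14 in mimic cells (change 0.44, SE 0.04, adjusted p = 0.046), and the other 4 BMS1 probes had -0.10 to 0.16. For RNA polymerase I and its factors, which make the rRNA, 23 probes of 15 genes had a median change of -0.02, and 0 passed the test. The HNRNPA1 and BMS1 calls were lost when any 1 array was left out, when between 0 and 8 of all tested probes passed, while the changes stayed at 0.45 to 0.47 and 0.41 to 0.47. They were also lost with the replicate block and with no filter, when 0 of all tested probes passed, and that of BMS1 also when the percentile was taken over detected probes (adjusted p = 0.0514).

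The second comparison set each pseudogene against its parent gene, to ask whether the copies moved as the parents did. In 17 of the 21 tested probes the changes of copy and parent lay within 0.2 of each other on the log2 scale. The parents, as means that include their dim probes, changed by only -0.15 to 0.14, and all tested probes had quartiles of -0.11 and 0.09. A probe that hardly changed thus lies near its parent in any case, and nearness does not tell whether a copy follows its parent. The exception that passed the test was RPL23AP32, which rose apart from its parent. Over the 21 pairs, which involve 17 pseudogenes and 13 parents, the median difference (pseudogene change minus parent change, the parent as the mean of its tested probes) was -0.01. Without any filter on background it was 0.02. In the test of single probes 0 pseudogene probes fell and 1 rose, against the 2.62% given above. The exact permutation test of the 4 arrays cannot give a two-sided p below 0.333 for a single pair.

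The tested pseudogene probes had a median change of -0.05 (quartiles -0.11 and 0.00), and 15 of 21 were below 0 (71.4%), against 53.8% of all tested probes. Both mimic arrays were below both control arrays for 11 of them (52.4%), against 32.5% of all tested probes. Both were above for 4, against 27.1% of all. Of these 4, RPL23AP64 and RPS15AP10 passed the filter through the mimic arrays alone, so the count of 4 is a description. Bright pseudogene probes stayed close to their parents. The 13 pairs with a pseudogene level above 3 had differences from -0.15 to 0.07. The ends were RPL32P3 and RPS20P27, whose parent means include the dim probes at 0.29 and -0.28. Against the brightest parent probe their differences were 0 and -0.07. RPL13AP3 read 6.21 and 6.18 in control and 6.08 and 6.08 in mimic cells, a change of -0.12, with its parent RPL13A at -0.06. RPL21P44 read 5.87 and 5.83 against 5.75 and 5.76, a change of -0.09, with RPL21 at -0.04 over 9 probes. In both the groups did not overlap. RPL19P12 (-0.08), RPS20P27 (-0.08), RPL23P8 (-0.13), RPS7P5 (-0.11), RPS10P7 (-0.12), RPL29P2 (-0.01) and RPL32P3 (-0.01) also lay within 0.2 of their parents. The 2 probes of RPS2P32 had -0.05 and 0.03, the 3 of RPL23AP7 between -0.15 and 0.00, the 2 of RPL23AP53 -0.07 and 0.02, and RPL13P5 had -0.04.

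A bright pseudogene probe does not by itself show that the pseudogene is transcribed, since its sequence can be close to that of the parent mRNA. Of the 28 pseudogene probes, 5 aligned with a probe of the parent gene (BLAST, expect value of 0.001 or less), 1 only with a probe that carries no gene name, and 22 with no other probe of the array; those 22 may still be close to a stretch of the parent that no probe covers. Pairs for RPL21P44 and RPL29P2 are printed to show how alike they are, with the bases that differ in capitals. The probes lie on chr4:54853006-54853065 (minus strand) and chr13:27829410-27829469 (plus strand) for RPL21P44 and RPL21, and on chr17:7657861-7657920 (plus strand) and chr3:52028054-52028113 (minus strand) for RPL29P2 and RPL29, all in hg19.

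RPL21P44: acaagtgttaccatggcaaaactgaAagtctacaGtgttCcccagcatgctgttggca
RPL21: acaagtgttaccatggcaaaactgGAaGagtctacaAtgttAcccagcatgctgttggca
RPL29P2: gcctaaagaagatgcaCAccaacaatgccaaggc
RPL29: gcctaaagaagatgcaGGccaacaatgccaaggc

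The first pair has 3 mismatches and 2 unpaired bases, and the second has 2 mismatches over the 34 bases aligned. Signals of such pairs cannot be assigned to the parent or to the copy. For 3 members the array's annotation also puts a probe on another chromosome than RefSeq's gene of that name: probes of RPL21 and RPL22 and 1 of the 2 probes of RPS2P32.

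The 4 pseudogene probes that lay more than 0.2 from their parents were all dim, and none of them aligned with any other probe of the array. The 3 that read higher in mimic cells are printed because they carry the differences that follow; no base is marked in them.

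RPL23AP32: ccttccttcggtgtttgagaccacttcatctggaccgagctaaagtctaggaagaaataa
RPL23AP64: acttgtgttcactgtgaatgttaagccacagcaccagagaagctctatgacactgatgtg
RPS15AP10: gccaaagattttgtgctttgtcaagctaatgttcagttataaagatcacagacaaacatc

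RPL23AP32 is a copy of RPL23A, the large-subunit protein beside the exit tunnel where the signal recognition particle docks. It lies within SPTBN1, the gene of a spectrin of the membrane skeleton, and its probe is on chr2:54756368-54756427 (hg19, plus strand). The probe read -1.91 and -1.88 in control cells (mean -1.89 ± 0.02, SD, n = 2) and -0.38 and -0.40 in mimic cells (mean -0.39 ± 0.01, SD, n = 2). The groups were far apart: the change of 1.5 (SE 0.04, limma adjusted p = 0.0314) is 2.83-fold, with a 95% interval of 2.63 to 3.06. It was printed at 10 spots, of which 9 or 10 per array were used, all well above background. The spots ran from -2.14 to -1.65 on the control arrays and from -0.65 to -0.23 on the mimic arrays, so no spot of 1 group reached those of the other.

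The parent did not share this rise. The 4 probes of RPL23A had changes of -0.05 to -0.11; the brightest read 8.69 and 8.72 in control and 8.61 and 8.63 in mimic cells. The difference between pseudogene and parent was 1.58 (SE 0.02). The other tested copies of RPL23A were RPL23AP7, RPL23AP53 and RPL23AP64, and the first 2 had differences of -0.07 to 0.10. The 2 probes of SPTBN1 had -0.17 (adjusted p = 0.146) and 0.30 (SE 0.37, well above background on 3 arrays). The rise of RPL23AP32 lost its call, at the same size, when any 1 array was left out (1.49 to 1.52, adjusted p of 0.127 to 0.189) and with the replicate number as a block (1.5, adjusted p = 0.125), and with no filter on background (adjusted p = 0.41). In the last 2 fits 0 of all probes passed, and with 1 array left out 0 to 8 did. The rise was 0.82 in place of 1.5 when the background was corrected by normexp, the model of signal and local background, and remained past the threshold there. That setting also adds an offset of 50 to every signal, which by itself draws the changes of dim probes towards 0.

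RPL23AP64 lies within CENATAC, which the array names CCDC84, and its probe is on chr11:118873827-118873886 (hg19, minus strand). It read -3.29 and -3.57 in control and -3.04 and -1.93 in mimic cells, and was well above background on the mimic arrays only. It was tested through those arrays alone, so its values are a description. The mimic arrays differed by more than the nearest arrays of the 2 groups. The mimic mean was at least 1.5-fold higher than the lowest signal that counts as well above background on the control arrays, and the fitted change of 0.94 did not pass the test (adjusted p = 0.278). The change ranged from 0.38 to 1.5 with 1 array left out; the value of 0.38 was that without mimic replicate 2, on which both the change and the 1.5-fold limit rest. The CCDC84 probe had 0.22 (SE 0.04, adjusted p = 0.0825).

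RPS15AP10, a copy of the small-subunit gene RPS15A, lies within GPBP1L1, and its probe is on chr1:46111924-46111983 (hg19, minus strand). It read -2.69 and -2.86 in control and -2.02 and -2.18 in mimic cells, and was well above background on the mimic arrays only. The groups did not overlap. The measured means were 1.6-fold apart, with a 95% interval of 1.32 to 1.93 (limma adjusted p = 0.069, not past the threshold). The control mean is that of signals not well above background. As the probe was tested through the mimic arrays alone, where it is high, these values and the gap between the groups are a description. With spike-in scaling the limma adjusted p was 0.0326, where 47.4% of all tested probes passed. With normexp the change was 0.17 in place of 0.68 (limma adjusted p = 0.184). The 4 probes of RPS15A had changes of -0.04 to 0.00, and the GPBP1L1 probe had -0.12.

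RPL13AP17, a copy of RPL13A within MAGI2, moved the other way. Its probe read 0.11 and 0.00 in control and -0.60 and -0.47 in mimic cells. The groups did not overlap, but the change of -0.59 (SE 0.07) did not pass the test (adjusted p = 0.058). With the filter set to all 4 arrays, which leaves fewer probes, it was the 1 member called lower (adjusted p = 0.049). RPL13AP17 was also called lower with normexp, spike-in scaling and the variance trend (limma adjusted p = 0.0118, 0.0207 and 0.00554). Its change in these settings was -0.37, -0.78 and -0.59. There 7.62%, 47.4% and 15.2% of all tested probes were called. The 3 probes of RPL13A had changes of -0.09 to 0.00, and the difference from the parent was -0.53 (SE 0.08). The 2 probes of MAGI2 were not well above background on any array.

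**Figure D3:**
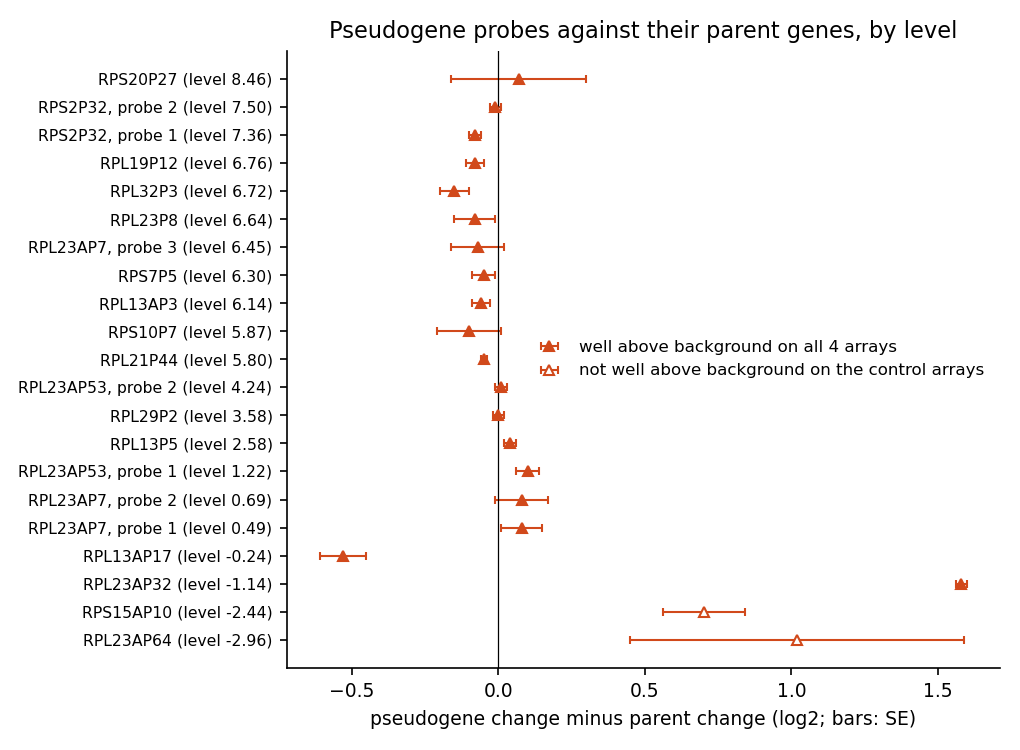
Difference between the change of each tested pseudogene probe and that of its parent gene (log2; bars are SE over 2 arrays per group), ordered by the level of the pseudogene probe. The 13 probes with a level above 3 lie between -0.15 and 0.07, and RPL13AP17 and RPL23AP32, at levels of -0.24 and -1.14, lie at -0.53 and 1.58. The open triangles, RPS15AP10 and RPL23AP64, were not well above background on the control arrays, so their place is that of the measured signals only.

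**Figure D4:**
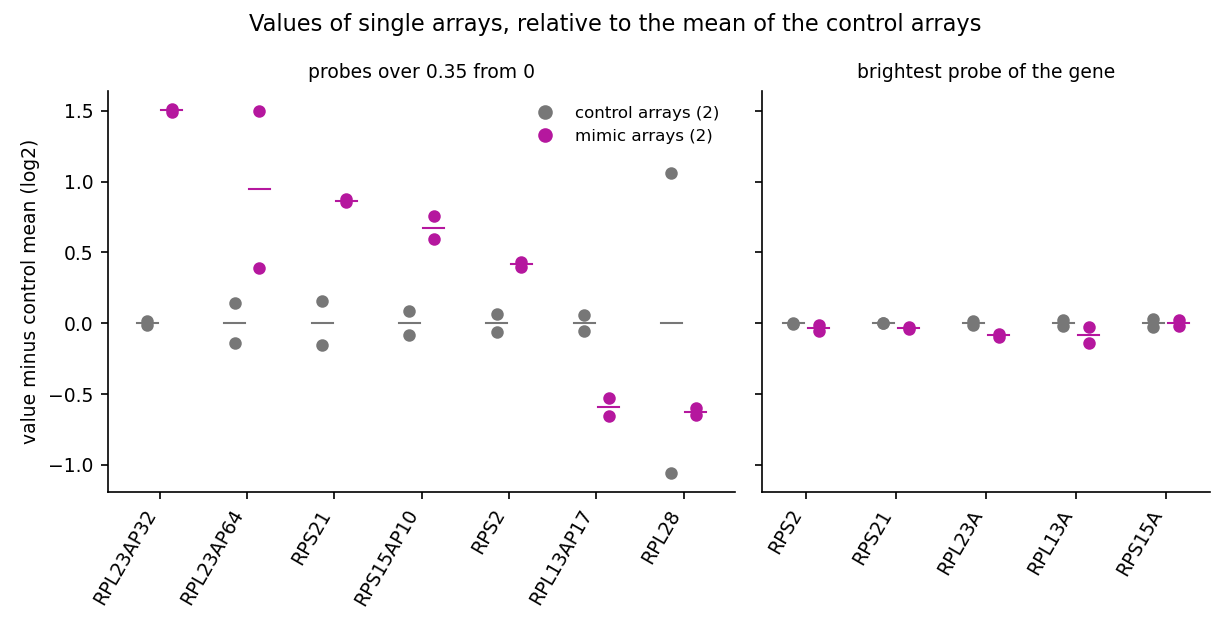
Values of single arrays, minus the control mean of the probe (log2), for the member probes with a change beyond 0.35 in either direction (left) and for the brightest probe of 5 genes named with them (right); grey points are control arrays, purple points mimic arrays and short lines the means. Mimic and control arrays are apart for RPL23AP32, RPS21, RPS15AP10, RPS2 and RPL13AP17, and RPL28 has control arrays on both sides of the mimic arrays. The control arrays of RPS15AP10 and RPL23AP64 were not well above background.

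The remaining 7 pseudogene probes were not tested, 6 of them being well above background on no array. They stood for RPL31P11, RPL36AP33, RPS16P5, a second probe of RPL13P5 and 3 of the 4 probes of RPL32P3.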

How the data were processed

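RNA of the 4 samples was hybridized to Agilent human arrays. The deposited spot intensity values came from Feature Extraction 10.7.3.1, per the file headers, background-subtracted and detrended within each array. The deposited value table holds the same intensity, rounded (within 0.497%); 0 of its columns matched no sample. Here outlier spots were dropped, spots of a probe averaged on the log2 scale, and the 75th percentile of each array subtracted. Probes well above background (at least 0.5 of their spots) on both arrays of a group were tested with limma 3.58.1 in R 4.3.3 (lmFit, eBayes, no covariates), with Benjamini-Hochberg adjustment over all 20328 tested probes. The step was tested on simulated data. Depth does not apply to arrays; their number limits the precision.

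The members and lists were chosen with earlier results of these data known. Named are members past the threshold, the 10 largest changes each way, pseudogenes with their parents, the paralogs, and RPL5, RPL11, RPS6, RPLP0, RPLP1, RPLP2 and RPSA, and called genes of other lists; RPL4, RPL30, RPL27A and SNORA10 were added after their values were seen. Probe coordinates are those of the files (hg19); all 107 names matched RefSeq symbols (GRCh38.p14), used for names, enclosing genes and sequences. Probes were aligned with blastn 2.17.0. A planned comparison with parent proteins was not run. The sequence of 1 pseudogene probe is not reported here. Figures were drawn with matplotlib.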

Additional observations from a re-analysis of the deposited data

How the results depend on the processing

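The 23 named probes gave 319 changes over the alternative settings, and all but 6 of these kept the sign of the reported change. Of the 319, 44 crossed the threshold. They come from the same 4 arrays, so they are not separate checks. RPL36, RPS14 and RPL34 turned to -0.11, -0.12 and -0.13 with spike-in scaling, and without control replicate 2 RPS14, RPS20 and the dimmer RPL28 probe turned (ranges with 1 array left out: -0.01 to 0.15, -0.62 to 0.05 and -1.69 to 0.43). Member probes called lower and higher (0 and 1 as reported) were 2 and 4 with normexp, 174 and 4 with spike-in scaling, 18 and 4 with the eBayes trend, 35 and 5 with the methods' t-test unadjusted and 0 and 0 after Benjamini-Hochberg, 0 and 0 with no filter, and 1 lower with the filter on all 4 arrays. Of all tested probes (532 called as reported), these settings called 1550, 9642, 3083, 4115, 0, 0 and 588 in that order. Of 197 tested member probes, 3.05% were called with normexp, 90.4% with spike-in scaling, 11.2% with the trend and 20.3% with the unadjusted t-test. The shares of all tested probes were 7.62%, 47.4%, 15.2% and 20.2%. With any 1 array left out, 0 members were called higher, and 0 probes of the translation and assembly lists.

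The replicate numbers did not pair the samples (correlation of the replicate differences between the groups 0.03 over all tested probes). With the replicate block 0 members, and 0 probes of either list, were called, as were 0 of all tested probes. List calls (ribosomal proteins without prefix 0, translation 1, assembly 1, RNA polymerase I 0) were 0, 1, 3 and 1 with normexp, 2, 24, 38 and 14 with spike-in scaling, 1, 4, 14 and 2 with the trend, and 0 for translation and assembly with no filter.

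The median of gene probes was -0.06 with quantile normalization and -0.23 with spike-in scaling, and -0.06 to -0.03 with 1 array left out. The median of pseudogene probes was -0.07 with normexp and with the filter on all 4 arrays, -0.23 with spike-in scaling, -0.0048 with no filter and -0.08 with 1 probe per name. The median pseudogene-parent difference was -0.04 with normexp, -0.03 with quantile normalization, -0.05 with the filter on all 4 arrays, 0.02 with no filter and -0.03 to -0.00096 with 1 array left out; an alternative chosen after seeing the data, the brightest parent probe, gave -0.01. The causes were not tested. A block for slide or scan could not be fitted, since all arrays share 1 of each. With 1 array left, a group is assumed to vary like the other. Dim probes limit the comparison: all members beyond 1.5-fold had a level below 0.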
